A study of Mus musculus with 8 samples.

Results

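The loci of 10 mouse genes that mark or maintain the stem cells of the intestinal crypt were followed through 16 deposited peak lists of histone acetylation. They were taken by name (Lgr5, Ascl2, Olfm4, Smoc2, Rnf43, Znrf3, Axin2, Tnfrsf19, Sox9 and Msi1) out of 21883 protein-coding genes listed by RefSeq, and a locus was the gene body plus 50 kb on each side. The lists come from CUT&Tag, in which an antibody guides a transposase to a chromatin mark, on small intestinal crypt cells of male C57BL/6J mice aged 9 weeks. Mice were fed (Fed) or fasted (Fast) for 24 h, and each state was studied without tetracycline (-Tetra) and after 21 days of tetracycline (+Tetra), an antibiotic that acts on gut bacteria. H3K27ac, acetylated lysine 27 of histone H3, and H3K9ac, acetylated lysine 9, each had 4 groups, and every group was 1 sample with 2 peak lists, called list 1 and list 2 here. Crypts were released by shaking in EDTA and dissociated to single cells with trypsin, and the number of mice behind a list is not given in the labels. The labels do not say whether both lists of a sample came from different mice, and p-values therefore measure only the spread between lists.

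Crypt stem cells divide at the base of the crypt and depend on Wnt signalling. R-spondins bind Lgr5 and related receptors and so hold back the ubiquitin ligases Rnf43 and Znrf3, which otherwise remove the Frizzled receptors for Wnt from the cell surface. Stabilised beta-catenin then acts with TCF/LEF factors on target genes, among them Ascl2 and Axin2. H3K27ac is found at active enhancers and promoters, and H3K9ac mostly at active promoters.

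H3K27ac lists held 32392 to 68545 peaks over 33.067 to 64.238 Mb, and H3K9ac lists 17249 to 99050 peaks over 16.536 to 47.25 Mb. No read totals were given, so the depth was unknown. The number of peaks moved with feeding in the lists numbered 1: for H3K9ac there were 17249 and 24643 peaks in the Fed lists 1 but 99050 and 97764 in the Fast lists 1. Loci of 10 epithelial genes were covered in every H3K27ac list, and each of these genes was marked at a gene end in every list. The loci of 8 fibroblast and muscle genes together had 18.6 to 27.1 kb of H3K27ac in Fed and 23.9 to 31.5 kb in Fast lists, which overlapped. Of these genes, Col1a2 and Col3a1 were covered by 0 bp in the Fed lists and by at most 200 bp in a Fast list, but Col1a1 by 3911 to 7580 bp in Fed and 6541 to 10884 bp in Fast, and Acta2 and Myh11 were covered in every list. The part of such cells in the members' values was not tested. In whole crypts, fewer cells of a type and less of a mark per cell cannot be told apart.

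RefSeq promoter sequences for GRCm38.p6 were at hand for 5 of the 10 genes (Ascl2, Olfm4, Rnf43, Axin2 and Tnfrsf19). The 250 bases before the start site are shown for 3 genes with an H3K27ac peak within 1 kb of the start in more Fast than Fed lists. They are also shown for Axin2, which had such a peak in all 8 lists. For Ascl2 the peak was in 0 Fed and 2 Fast lists, and no H3K27ac peak overlapped the bases shown. Each runs 5′ to 3′ toward the start, and capitals mark CpG dinucleotides.
Ascl2, chr7:142969265-142969514, minus strand: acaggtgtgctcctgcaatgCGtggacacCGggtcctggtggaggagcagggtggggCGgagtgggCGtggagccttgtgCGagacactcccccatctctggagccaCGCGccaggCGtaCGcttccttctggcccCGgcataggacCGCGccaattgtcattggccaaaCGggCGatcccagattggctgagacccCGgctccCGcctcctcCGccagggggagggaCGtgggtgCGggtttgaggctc
Olfm4, chr14:80000052-80000301, plus strand: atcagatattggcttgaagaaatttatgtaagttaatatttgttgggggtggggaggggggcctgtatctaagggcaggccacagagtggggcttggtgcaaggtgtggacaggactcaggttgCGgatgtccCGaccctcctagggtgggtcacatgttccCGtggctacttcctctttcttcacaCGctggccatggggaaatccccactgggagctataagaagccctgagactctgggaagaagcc
Tnfrsf19, chr14:61046856-61047105, minus strand: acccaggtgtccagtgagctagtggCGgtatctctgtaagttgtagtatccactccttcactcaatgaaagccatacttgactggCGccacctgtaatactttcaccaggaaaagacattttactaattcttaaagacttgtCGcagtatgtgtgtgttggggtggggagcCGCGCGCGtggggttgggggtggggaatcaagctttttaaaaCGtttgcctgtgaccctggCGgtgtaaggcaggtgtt
Axin2, chr11:108920099-108920348, plus strand: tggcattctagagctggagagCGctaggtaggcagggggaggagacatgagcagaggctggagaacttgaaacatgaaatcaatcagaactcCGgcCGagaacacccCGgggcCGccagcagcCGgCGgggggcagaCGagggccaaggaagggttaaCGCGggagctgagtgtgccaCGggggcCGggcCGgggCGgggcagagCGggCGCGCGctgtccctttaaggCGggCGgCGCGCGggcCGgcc

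These windows held 19 CpG in Ascl2, 4 in Olfm4, 9 in Tnfrsf19 and 24 in Axin2, against a median of 10 over 21262 promoters. Of the 4 windows, that of Axin2, whose start had H3K27ac in every list, had the most CpG. The Rnf43 start at 87663087, not shown, also had H3K27ac in every list, and its window held 8 CpG. Of 3 motifs searched on both strands in the 300 bases from 250 before to 50 after a start, none was found in the 4 windows shown. The TCF/LEF words were CTTTGAA and, with its last bases changed, CTTTGAT, further CTTTGTA and finally the word CTTTGTT, and 14.7% of all promoters held one of them. The E-box CAGCTG was held by 15.6% and the TATA word TATAAA by 12.6%. A second Tnfrsf19 start, at 61037987 on chromosome 14, had ATCAAAG, the reverse complement of a TCF/LEF word, 202 bases before the start and CAGCTG 10 bases before it, and this window had no H3K27ac peak in any list.

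In crypts of fasted mice, H3K27ac covered more of the Ascl2, Olfm4 and Smoc2 loci than in crypts of fed mice, 3.57-fold, 5.13-fold and 4.44-fold. Ascl2 is a transcription factor that sustains stem cell identity, Olfm4 a secreted glycoprotein of crypt base columnar cells, and Smoc2 a secreted matrix-associated protein. Folds are ratios of covered length plus 200 bp, averaged on the log2 scale over both tetracycline states. All 8 genes that entered the test had more covered length in Fast than in Fed on average, except that Msi1 was at -0.04 on the log2 scale when lists were cut to equal numbers of top-scoring peaks. Of the 8, 3 passed the test and none in the reverse direction. The test was limma over the 15745 genes whose loci averaged at least 1000 bp covered, and it called 23 genes higher in Fast (0.146%) and 0 lower at a Benjamini-Hochberg adjusted p under 0.05. After scaling to each list's total covered length it called 39 genes higher and 11 lower, and 2 members, Olfm4 and Smoc2, with Ascl2 at an adjusted p of 0.064.

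The median log2 ratio of the 8 members was 1.46, against 0.21 over all genes tested. The median over all genes depended on the setting: it was -0.07 after scaling, where the members' was 1.18, and -0.0069 over lists 2 alone, where the members' was 0.74. Without adjustment 6 of the 8 members and 10.1% of all genes were higher in Fast at p under 0.05. Counted without a model, 5 of the 10 members (Ascl2, Olfm4, Smoc2, Tnfrsf19 and Sox9) had all 4 Fast lists above all 4 Fed lists, a pattern found at 5.29% of all gene loci, and no member had the reverse, which 0.128% of loci had. Lgr5 and Tnfrsf19 were below the minimum length for the limma test.

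**Figure D1:**
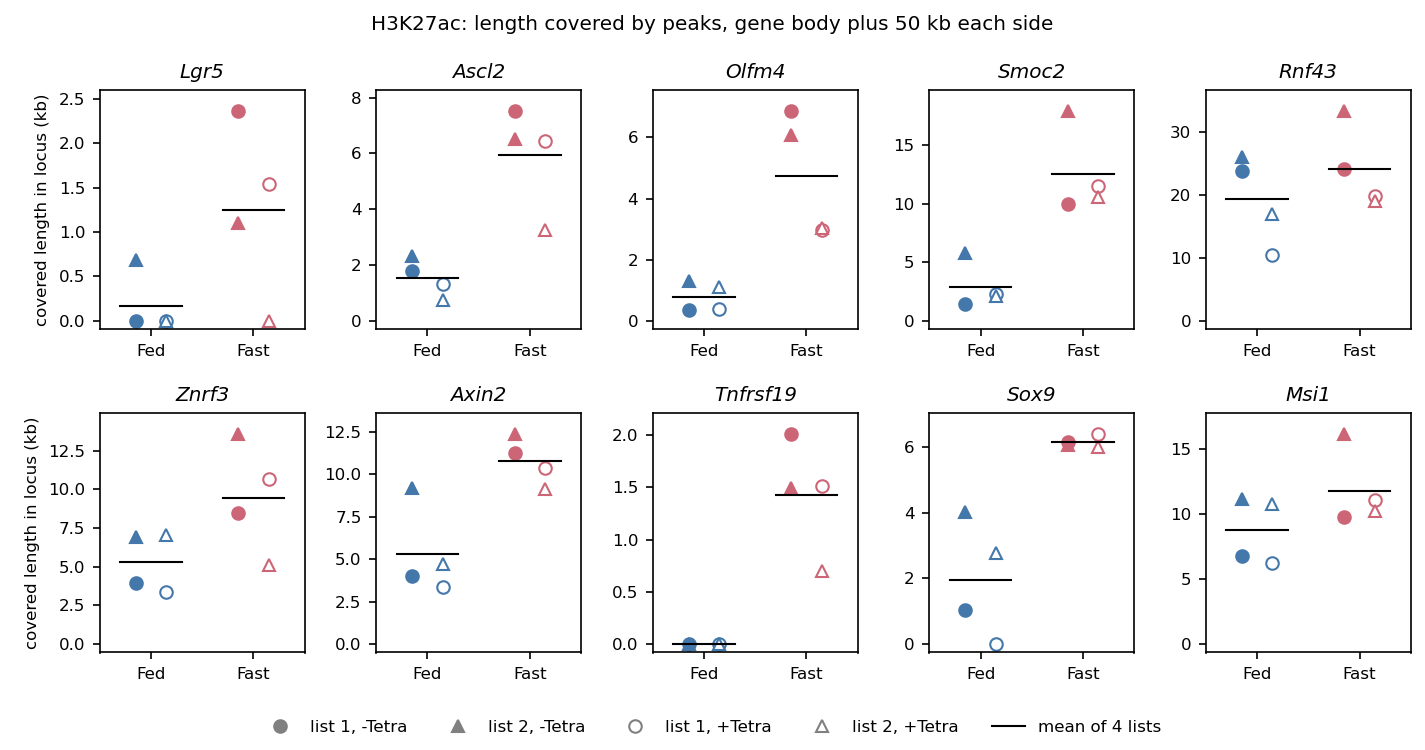
Length covered by H3K27ac peaks in each locus (vertical axis, kb) in Fed and Fast lists, with filled symbols for -Tetra, open symbols for +Tetra, circles for list 1, triangles for list 2 and a line at the mean of 4 lists. Vertical scales differ between genes; Fast and Fed lists do not overlap for Ascl2, Olfm4, Smoc2, Tnfrsf19 and Sox9.

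Gene positions are on GRCm38.p6. Among the genes at the cell surface, Lgr5 (chr10:115450314-115587780), the R-spondin receptor that defines crypt base columnar cells, had little H3K27ac. Its locus of 237.5 kb was covered by 0 and 682 bp in Fed -Tetra lists 1 and 2, by 0 bp in both Fed +Tetra lists, by 2355 and 1103 bp in Fast -Tetra and by 1544 and 0 bp in Fast +Tetra. Of the Fast lists, 3 lay above every Fed list, but Fast +Tetra list 2 had no peak, like 3 of the Fed lists. No H3K27ac peak lay in the body or at the ends of Lgr5 in any Fed list, and 3 Fast lists had 6 such peaks between them. The mean was 1250.5 ± 982 bp (SD, n = 4 lists) in Fast and 170.5 ± 341 bp in Fed, and in an exact permutation test of the Fed and Fast labels within tetracycline states (two-sided, 36 arrangements) p was 0.167.

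Tnfrsf19 (chr14:60963834-61046855), also called Troy, is a receptor of the tumour necrosis factor family found on crypt base cells and a Wnt target gene. H3K27ac peaks covered 0 bp of its locus in all 4 Fed lists, 2011 and 1488 bp in Fast -Tetra and 1514 and 705 bp in Fast +Tetra. The groups did not overlap. Each Fast list had a peak at the start at 61046855, within chr14:61046091-61047105, and the 4 peaks were 756, 1015, 578 and 705 bp wide. Their scores, the authors' own value for each peak, were 72.8, 81.8, 50.5 and 70.6, close to the lowest score in any list, 50. A gene end marked in all 4 Fast and no Fed lists was seen at 0.096% of all genes. No fold is given because the Fed lists are all listed at 0; the exact permutation p was 0.0556, the smallest the 36 arrangements allow.

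The loci of both ligases were covered in every list. H3K27ac at Rnf43 (chr11:87663087-87735539) covered 23760 and 25973 bp in Fed -Tetra, 10531 and 17040 bp in Fed +Tetra, 24058 and 33325 bp in Fast -Tetra and 19884 and 19119 bp in Fast +Tetra. Fed and Fast overlapped (log2 ratio 0.36 ± 0.25 (SE), limma adjusted p = 0.67). In contrast, all 4 +Tetra lists at Rnf43 lay below all 4 -Tetra lists, which no other member showed and 1.22% of all gene loci did. Of its regions present in all 8 lists, the one with the highest median score was within the gene, at chr11:87707898-87711289.

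Znrf3 (chr11:5276329-5444847), the paralog of Rnf43, had 3926 and 6930 bp in Fed -Tetra, 3346 and 7072 bp in Fed +Tetra, 8453 and 13574 bp in Fast -Tetra and 10646 and 5138 bp in Fast +Tetra. The groups overlapped through Fast +Tetra list 2 (log2 ratio 0.80 ± 0.33 (SE), limma adjusted p = 0.40). Peaks that touched the 1 kb window at its upper gene end, present in every list, spanned 801 to 1274 bp in Fed lists and 1674 to 2504 bp in Fast lists, without overlap; lengths by zone count such peaks whole. Leaving out lists gave Znrf3 ratios of 0.25 to 1.34. One body region, chr11:5411201-5412179, was present in each of the 4 Fast lists and in no Fed list.

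Axin2 (chr11:108917828-108950783), a scaffold of the complex that degrades beta-catenin and a widely used readout of Wnt activity, had 4030 and 9176 bp in Fed -Tetra, 3385 and 4733 bp in Fed +Tetra, 11265 and 12363 bp in Fast -Tetra and 10361 and 9147 bp in Fast +Tetra. The lowest Fast list fell short of the highest Fed list by a small margin, 9147 against 9176 bp. The log2 ratio was 1.09 ± 0.29 (SE) with a limma adjusted p of 0.15, and 0.67 to 1.5 when lists were left out. The flanks alone did not overlap, with 1708 to 3590 bp in Fed and 4369 to 6048 bp in Fast lists. For this and the other zones named within loci, the share of all genes without overlap in such a zone was not counted. The start shown above lies inside the gene body as tabulated and within chr11:108919747-108922637, which had a peak in all 8 lists.

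Of the transcription factors, Ascl2 (chr7:142966822-142969264) had 1776 and 2317 bp in Fed -Tetra, 1335 and 760 bp in Fed +Tetra, 7520 and 6526 bp in Fast -Tetra and 6432 and 3241 bp in Fast +Tetra. The groups did not overlap, and the log2 ratio was 1.83 ± 0.33 (SE, limma adjusted p = 0.048). No Fed list had a peak at the gene itself, and 3 Fast lists had one within chr7:142965574-142969259. The other gain lay in the flanks, which had 760 to 2317 bp in Fed and 3241 to 5129 bp in Fast lists. One flank region 33.5 kb from the gene, chr7:142931783-142933351, was present in each Fast list and in none of the Fed lists, and its nearest gene end was that of Th. A flank region 42.0 kb away on the other side, chr7:143011244-143012650, was present in all 8 lists.

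Sox9 (chr11:112782210-112787757), a transcription factor of stem and Paneth cells, had 1028 and 4024 bp in Fed -Tetra, 0 and 2779 bp in Fed +Tetra, 6136 and 6056 bp in Fast -Tetra and 6386 and 6008 bp in Fast +Tetra. The 4 Fast lists lay close together and above every Fed list, while the Fed lists spread widely. The log2 ratio of 2.26 ± 0.62 (SE) did not pass the test (limma adjusted p = 0.16). It was 0.81 over lists 2 alone and 3.7 over lists 1 alone, and Sox9 passed without Fed -Tetra list 2 (2.70, limma adjusted p = 0.0037) or without Fed +Tetra list 2 (3.23, limma adjusted p = 0.0056) and with a pseudocount of 1000 bp (1.52, limma adjusted p = 0.038). The gene itself was marked in 3 Fed and 4 Fast lists, and the separation was in the flanks, with 0 to 574 bp in Fed and 1820 to 5404 bp in Fast lists.

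Of the secreted proteins, Olfm4 (chr14:80000302-80023141) had 370 and 1298 bp in Fed -Tetra, 391 and 1103 bp in Fed +Tetra, 6856 and 6076 bp in Fast -Tetra and 2982 and 3033 bp in Fast +Tetra. The groups did not overlap (log2 ratio 2.36 ± 0.43 (SE), limma adjusted p = 0.048). The start had a peak in 1 Fed list and in all 4 Fast lists, and the gene body had 0 peaks in the Fed lists and 9 in 3 Fast lists. One region 16.3 kb beyond the gene, chr14:80039402-80040504, was present in all 8 lists, and in 3 of the 4 Fed lists it was the only H3K27ac of the locus.

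Smoc2 (chr17:14279490-14404790) had 1489 and 5776 bp in Fed -Tetra, 2321 and 2175 bp in Fed +Tetra, 10016 and 17915 bp in Fast -Tetra and 11520 and 10613 bp in Fast +Tetra. The groups did not overlap (log2 ratio 2.15 ± 0.35 (SE), limma adjusted p = 0.032). Coverage was higher both in the gene with its ends, at 1027 to 2715 bp in Fed and 4595 to 8930 bp in Fast lists, and in the flanks, at 462 to 3061 bp and 4885 to 8985 bp. The flank region found in each Fast list and in none of the Fed lists, chr17:14234396-14236108, lies 43.4 kb from Smoc2, and its nearest gene end was that of Dact2.

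All 3 calls were lost without Fast -Tetra list 2 or without Fed +Tetra list 1, where the adjusted p was 0.065 and 0.14 for Smoc2, 0.099 and 0.13 for Ascl2 and 0.11 and 0.15 for Olfm4. They were also lost with lists cut to equal numbers of top-scoring peaks, with log2 ratios of 2.02 for Smoc2, 1.24 for Ascl2 and 1.43 for Olfm4. Over lists 1 alone the Olfm4 ratio was 3.03 and over lists 2 alone 1.69.

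Msi1 (chr5:115359059-115455698), an RNA-binding protein of intestinal progenitors, showed a difference that the whole locus did not. The locus had 6793 and 11200 bp in Fed -Tetra, 6280 and 10766 bp in Fed +Tetra, 9830 and 16183 bp in Fast -Tetra and 11074 and 10227 bp in Fast +Tetra, and the groups overlapped (log2 ratio 0.44 ± 0.29 (SE), limma adjusted p = 0.65). Of this length, 66.1% lay at the ends of other genes in the flanks, among them Sirt4 and Cox6a1. The Msi1 body had 0 peaks in the 4 Fed lists and 11 peaks in the 4 Fast lists, which covered 1365 to 2951 bp, and chr5:115430390-115432067 had a peak in each Fast list. This zone was picked after its values were seen, and the share of all genes with such a pattern was not counted. No H3K27ac list had a peak at either tabulated end of Msi1. No RefSeq promoter entry was at hand for Msi1, so marking of a start inside the tabulated body could not be checked.

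**Figure D2:**
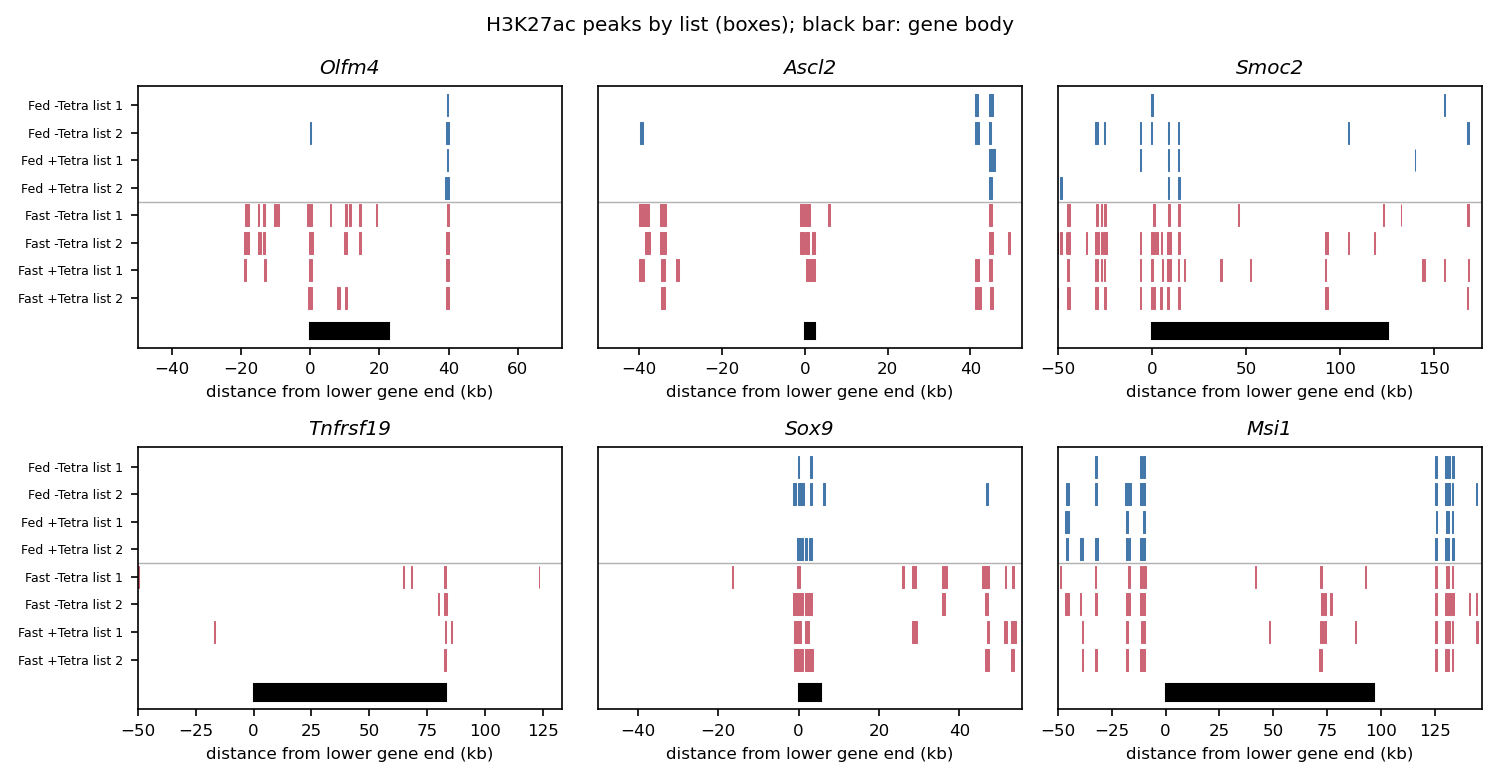
H3K27ac peaks of 6 loci as boxes, 1 row per list (Fed above the grey line, Fast under it), by distance in kb from the gene end with the lower coordinate; the black bar is the gene body. Tnfrsf19 has no box in any Fed row, and the Msi1 body has boxes in Fast rows only.

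At gene ends, counted as a peak within 1 kb of either end, the 4 Fast H3K27ac lists marked 7 to 8 of the 10 members (mean 7.25) and the Fed lists 2 to 5 (mean 3.5). Over all genes the shares were 48.4% and 46.9%. More Fast than Fed lists were marked at 7 members, against 13.2% of all genes, and more Fed than Fast lists at 0, against 9.44%. No member was marked in all 4 Fed lists and no Fast list (0.0137% of genes). In the Fed lists, 4 and 5 members were marked without and 2 and 3 with tetracycline, and in the Fast lists 7 and 7 without and 8 and 7 with it; over both feeding states 4 members were marked in more -Tetra lists (13.9% of genes) and 2 in more +Tetra lists (8.19%). Rnf43 and Znrf3 were marked in all 8 lists, as were 33.6% of all genes, and Msi1 in none at its tabulated ends. Axin2 was marked at a tabulated end in 1 Fast list, although the window of its RefSeq start inside the gene had a peak in every list.

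**Figure D3:**
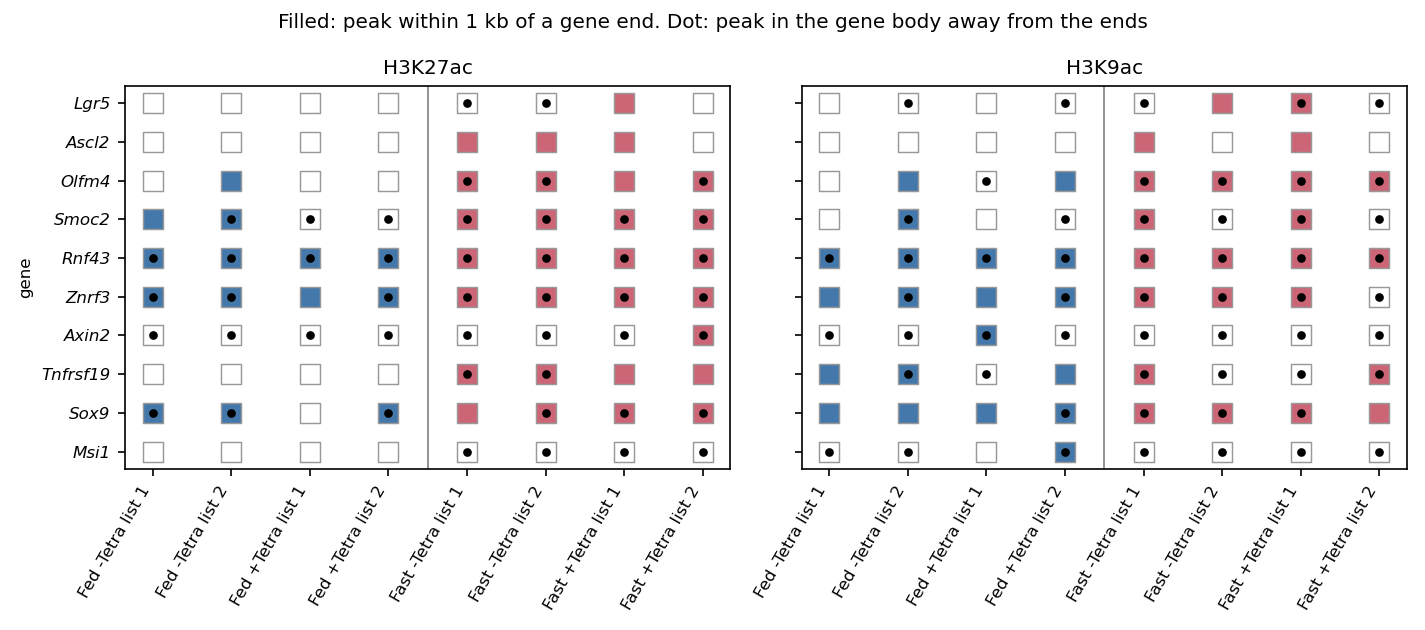
Marking of the 10 genes (rows) in 8 H3K27ac and 8 H3K9ac lists (columns, Fed left of the line and Fast right of it). A filled square is a peak within 1 kb of a gene end and a black dot a peak elsewhere in the gene body; for H3K27ac 7 genes have more filled squares in Fast columns and 0 in Fed columns, and for H3K9ac 4 genes have more on each side.

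Merging overlapping H3K27ac peaks of the 8 lists gave 184 regions in the 10 loci. Of these, 5 regions (2.72%) were present in every Fast list and absent from every Fed list, against 0.385% of the regions of all gene loci, and 0 in the reverse, against 0.0907%. The 5 were the ones named above at Ascl2, Smoc2, Znrf3, Tnfrsf19 and Msi1. With 3 or 4 Fast and no Fed lists there were 15 regions (8.15%, against 1.45%), of which Smoc2 had 4, Olfm4 3 and Ascl2 2. Regions present in all 8 lists numbered 18 (9.78%, against 16.2%), and 6 of these were at Rnf43. With lists cut to equal numbers of top-scoring peaks, the gain of 3.75 members marked at a gene end was 1.5, the 5 members without overlap became 1 and the 5 Fast-only regions became 0.

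Tetracycline gave no member call for H3K27ac. By limma 0 of 8 members passed an adjusted p under 0.05 for +Tetra over -Tetra, and 3 of all genes tested (0.0191%) did, all lower with tetracycline. Without adjustment 2 members were lower at p under 0.05, Rnf43 (log2 ratio -0.71 ± 0.25 SE) and Ascl2 (-0.74 ± 0.33 SE), both with an adjusted p of 0.9999, and 0 were higher; of all genes 3.54% were lower and 0.152% higher at that p. The members' median log2 ratio was -0.50, against -0.12 over all genes. The fasting ratio was 1.69 without and 1.98 with tetracycline at Ascl2, 2.85 and 1.87 at Olfm4, and 2.10 and 2.20 at Smoc2. Within 1 tetracycline state 0 members passed by limma: 5 were higher in Fast at an unadjusted p under 0.05 in each state, as were 7.69% of all genes without and 3.52% with tetracycline, and 0 members were lower, against 0.241% and 0.305% of genes. After adjustment 0.00635% and 0.0191% of genes passed. Tetracycline within Fed or within Fast mice gave 0 member calls by limma, with 1 member lower in Fed and 0 in Fast at an unadjusted p under 0.05, as were 2.83% and 1.84% of all genes; in Fed, 0.00635% of genes were called higher and 0.0826% lower. Without Fed +Tetra list 2, the Sox9 log2 ratio of +Tetra over -Tetra in Fed was -3.51. That value rests on the lone remaining Fed +Tetra list, which had 0 bp at Sox9, so its size depends on the pseudocount of 200 bp. The difference of the fasting ratios was tested as an interaction, and 0 of 8 members passed it by limma, with 0 at an unadjusted p under 0.05, against 0.743% of all genes higher and 0.641% lower; at Olfm4 it was -0.98 ± 0.86 (SE).

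**Figure D4:**
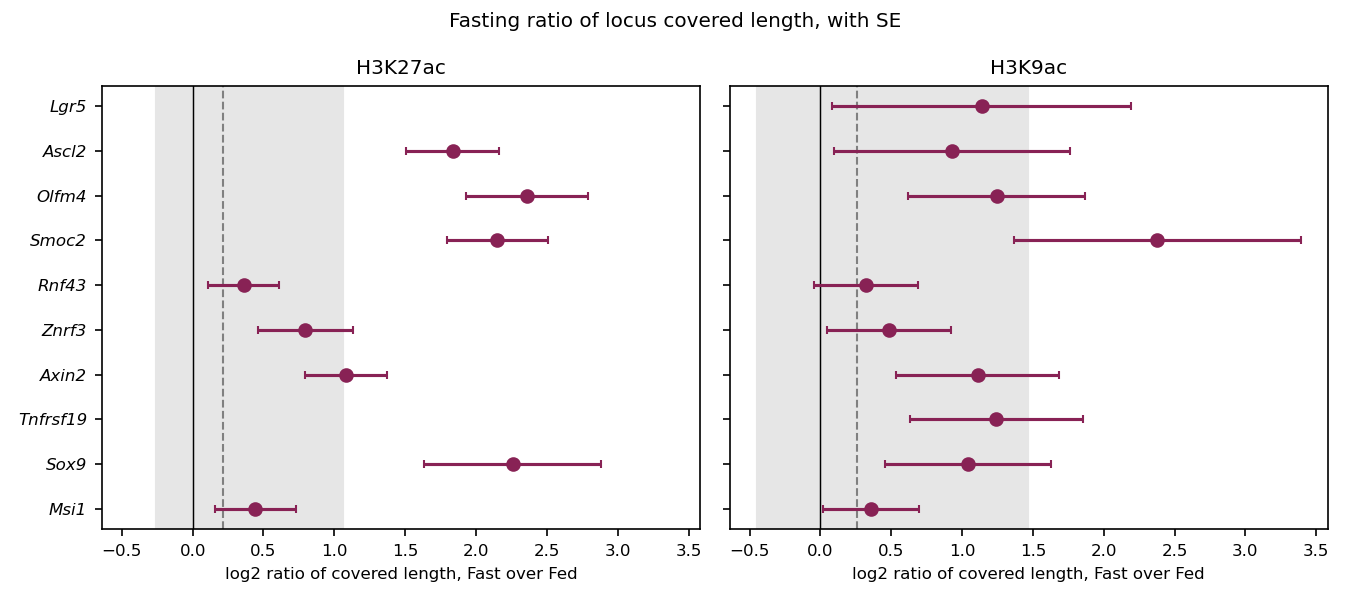
Log2 ratio of covered length, Fast over Fed, with its SE (horizontal bars) for each member in H3K27ac and H3K9ac; the grey band runs from the 5th to the 95th percentile of all genes tested and the dashed line is their median, 0.21 and 0.26. Ascl2, Olfm4, Smoc2, Sox9 and, narrowly, Axin2 are right of the band for H3K27ac, and Lgr5 and Tnfrsf19, not tested for that mark, have no point there.

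H3K9ac at the same loci did not separate fed from fasted crypts as clearly. All 10 members had more covered length in Fast on average, and 8 of 10 after scaling to total covered length, where Rnf43 and Msi1 were below 0. With equal numbers of top-scoring peaks only 5 members passed the minimum length, and 1 of them, Znrf3, was above 0, while Rnf43, Axin2, Sox9 and Msi1 were below it. The members had a median log2 ratio of 1.08 against 0.26 over all 16703 genes tested, and limma called 0 members and 0 genes in either direction (0%). Without adjustment 1 member, Smoc2, was higher at p under 0.05 (log2 ratio 2.38 ± 1.01 SE, adjusted p = 0.94), as were 3.56% of all genes, and 0 members were lower, as were 0.527% of genes. The 4 Fast lists lay above the 4 Fed lists at 2 members, Olfm4 and Tnfrsf19, against 3.48% of gene loci, and below them at none, against 0.251%.

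Olfm4 had 530 and 1413 bp of H3K9ac in Fed -Tetra, 1436 and 923 bp in Fed +Tetra, 2275 and 3209 bp in Fast -Tetra and 2364 and 2948 bp in Fast +Tetra. Tnfrsf19 had 608 and 1108 bp in Fed -Tetra, 1151 and 1409 bp in Fed +Tetra, 3360 and 1755 bp in Fast -Tetra and 3183 and 2862 bp in Fast +Tetra. Both therefore had H3K9ac in every Fed list, and Tnfrsf19 had it in the Fed lists although these had no H3K27ac peak in the locus. The start of Tnfrsf19 at 61046855 had an H3K9ac peak in 3 Fed and 2 Fast lists.

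Smoc2 showed how far H3K9ac varied within a group. It had 0 and 3801 bp in Fed -Tetra, 0 and 2110 bp in Fed +Tetra, 11521 and 835 bp in Fast -Tetra and 8632 and 2329 bp in Fast +Tetra. The high values were both in lists numbered 1, those with the most peaks, and over lists 2 alone the log2 ratio was -0.91. Over lists 2 alone the ratio was also negative at Ascl2, Rnf43, Znrf3 and Msi1, at -0.37, -0.04, -0.09 and -0.09. The part of the number of peaks in these ratios was not tested apart from the alternatives with equal peak numbers and scaled lengths.

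Lgr5 had 494 and 1636 bp of H3K9ac in Fed -Tetra, 0 and 720 bp in Fed +Tetra, 2834 and 466 bp in Fast -Tetra and 3150 and 615 bp in Fast +Tetra, with overlapping groups. Sox9 had 873 and 2872 bp in Fed -Tetra, 663 and 3066 bp in Fed +Tetra, 5009 and 3814 bp in Fast -Tetra and 2169 and 3183 bp in Fast +Tetra, again overlapping. The other members ranged from 654 bp (Axin2, Fed -Tetra list 1) to 17689 bp (Rnf43, Fast +Tetra list 2), apart from 0 bp at Ascl2 in Fed +Tetra list 1 and 269 bp there in Fast -Tetra list 2. The Msi1 body had 0 to 1555 bp in Fed and 1735 to 5304 bp in Fast lists, without overlap, as for H3K27ac.

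**Figure D5:**
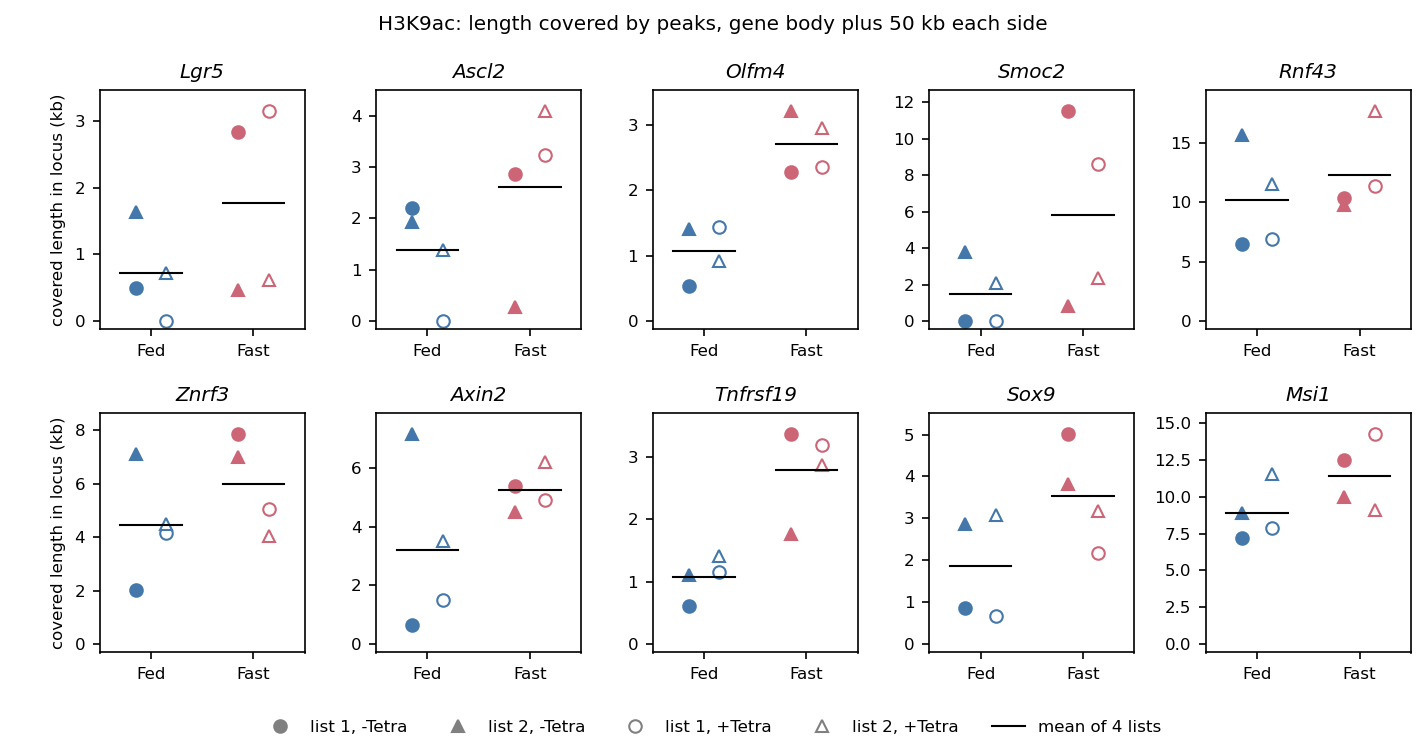
Length covered by H3K9ac peaks in each locus (vertical axis, kb), with filled symbols for -Tetra, open symbols for +Tetra, circles for list 1, triangles for list 2 and a line at the mean of 4 lists. Fast and Fed lists do not overlap for Olfm4 and Tnfrsf19; at Smoc2 both high Fast values are circles.

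H3K9ac marked the gene ends of 4 to 6 members in Fed lists (mean 5.0) and 4 to 7 in Fast lists (mean 5.75). More Fast lists were marked at 4 members, against 23.8% of genes, and more Fed lists at 4, against 20.7%. Sox9 and Rnf43 were marked in all 8 lists, as were 21.1% of genes. No member was marked in the 4 Fast lists alone (0.0777% of genes) or in the 4 Fed lists alone (0.0411%). At Lgr5 and Ascl2 an H3K9ac peak at a gene end was seen in 0 Fed lists and 2 Fast lists each. Of 339 H3K9ac regions in the loci, 1 was present in every Fast list and absent from every Fed list (0.295%, against 0.0237%), in the body of Axin2 at chr11:108935321-108936788. Tetracycline and its interaction with fasting gave 0 of 10 member calls by limma for H3K9ac, with 0 members for tetracycline and 1, Ascl2, positive for the interaction at an unadjusted p under 0.05. At that p 0.305% of all genes were higher and 0.0718% lower with tetracycline, and 0.15% were positive and 0.0838% negative for the interaction, where the list number as a block left 0 members. No member had all 4 +Tetra lists above (0.238% of loci) or below (0.142%) all 4 -Tetra lists; 3 members were marked at a gene end in more -Tetra lists (20.8% of genes) and 2 in more +Tetra lists (22.2%).

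Of 57 H3K27ac regions of the loci present in at least 4 lists, 52.6% overlapped an H3K9ac region, against 42.5% over all gene loci. The loci differed widely: 7 of 8 such regions at Msi1 and 11 of 16 at Rnf43 overlapped an H3K9ac region, but 1 of 9 at Smoc2 and 0 of 3 at Ascl2. At Msi1, all of these regions except chr5:115430390-115432067 lay in the flanks, most of them at the ends of other genes.

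Other genes of the pathway were given the same test. Of 18 Wnt pathway and target genes, 0 passed the limma test of H3K27ac for fasting, with a median log2 ratio of 0.31 against 0.21 for all genes. The extremes were Ephb3, a receptor that positions cells in the crypt (1.52 ± 0.34 SE, adjusted p = 0.091), and Ccnd1, cyclin D1 (1.23 ± 0.35 SE, adjusted p = 0.18), against Notum, a secreted Wnt inhibitor (-0.12 ± 0.26 SE), and Lef1 (-0.06 ± 0.28 SE). Of 12 other crypt stem or progenitor genes, 0 passed, with a median of 0.67. Among them the water channel gene Aqp4 had 0 to 540 bp in Fed and 2356 to 4025 bp in Fast lists (adjusted p = 0.060), and Slc12a2, a chloride cotransporter gene, 0 to 1194 bp and 1721 to 5111 bp (adjusted p = 0.14). Mex3a and Bmi1 were lowest, at 0.25 each.

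Marker genes of other crypt cells were given the same measure. Of 5 Paneth cell genes 2 were tested, and Mmp7, the protease that activates Paneth cell defensins, rose (log2 ratio 4.16 ± 0.60 SE, limma adjusted p = 0.027), while Itln1 did not pass (0.30, adjusted p = 0.79). Lyz1, the lysozyme gene of Paneth cells, had 0 to 630 bp in Fed and 0 to 1564 bp in Fast lists, which overlapped. The summed H3K27ac length of the 5 loci was 3.26 to 6.95 kb in Fed and 12.4 to 16.1 kb in Fast lists, without overlap. Ang4 and Defa24 had 0 bp in every Fed list. In Fast lists Defa24 had 1313 to 1924 bp, but Ang4 had 0 to 1696 bp and so overlapped. The 4 goblet cell genes had 5.54 to 13.7 kb in Fed and 12.2 to 17.8 kb in Fast lists (median log2 ratio 1.31, 0 called). For 8 enterocyte genes the median was -0.07 and for 6 leukocyte genes 0.32. All 6 leukocyte ratios were above 0 and 0 were called. Ptprc was the highest (1.54, limma adjusted p = 0.24), with 0 to 3642 bp in Fed and 2137 to 3808 bp in Fast lists. Its gene end was marked in 0 Fed and 4 Fast lists, whereas that of Cd3e was marked in 4 Fed and 2 Fast lists. The part of these cell types in the members' values was not tested.

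Across the 16 lists of both marks, the covered lengths most alike to Olfm4 were those of Glul (Pearson's r = 0.916), Bhlha15 (0.896) and Teddm1a (0.888). For Lgr5 they were Golgb1 (0.927), Bmp6 (0.916) and Sbspon (0.913), and for Ascl2 Defb25 (0.877), Rem1 (0.869) and Emp2 (0.865). The median r with all other genes was 0.303, 0.191 and 0.369. The rule kept out loci that overlapped that of the member, but not loci that overlapped each other, so named genes may share peaks. These correlations are descriptions, since all loci of a list share its number of peaks.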

How the data were processed

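The authors deposited, for each of 8 samples, 2 lists of peaks with a chromosome, start, end, name beginning with MACS and a score, whose unit is not given; per the labels' file names the lists were downsampled. Per the submitters' processing notes, FastQC, Bowtie and SAMtools were used with build mm10; the peak caller's version and cutoff, and the use of IgG libraries, are not given in the sources used here. The score deposited by the authors was at least 50 in every list and was used only to rank peaks within a list. Depth is unknown, so no counting interval is given.

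Gene bodies came from a RefSeq table for GRCm38.p6. Per gene and list, the base pairs covered by peaks were summed over the body plus 50 kb each side; a gene end was marked by a peak overlapping its 1 kb window by at least 1 bp. limma 3.58.1 in R 4.3.3 was fitted to log2(covered bp + 200) over all genes with a mean of at least 1000 bp, separately for each mark, with 4 groups of 2 lists, and p-values were adjusted over all genes. Single values were also tested by exact permutation within tetracycline states. Python 3.11.15, numpy 2.4.6, pandas 2.3.3 and matplotlib 3.10.9 were used. On simulated data the limma step recovered 73% of genes changed by 2 on the log2 scale and 90% of those changed by 3 among 15745 genes (H3K27ac, Fast over Fed). For H3K9ac, among 16703 genes, it recovered 27% and 51%. Unchanged genes called were 6 for H3K27ac and 2 for H3K9ac. The simulation drew every gene and list independently, without the differences in peak number that all loci of a real list share. These rates may therefore not hold for the real lists.

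All 10 members were named whatever their values; of the other lists, the 2 highest and 2 lowest H3K27ac ratios were named, and the 3 genes most alike to Lgr5, Ascl2 and Olfm4. The members and lists were chosen with earlier results of these data known. Regions named are those present in every Fast list and no Fed list and, per gene, those in all 8 lists or in 3 or 4 Fast lists; the zones named within loci, Aqp4's and the other marker ranges were picked after their values were seen. Alternatives were the higher-scoring 0.5 of every list, equal numbers of top-scoring peaks, peaks of at least 500 bp, flanks of 10 kb, a window of 2.5 kb, an overlap of 0.5, a pseudocount of 1000 bp, no filter, scaling to total covered length, a block for the list number and leaving out lists, where a group's lone list was assumed to vary like the other groups.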

Additional observations from a re-analysis of the deposited data

Results flagged for a closer look

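At Ascl2, H3K9ac covered length differed between the -Tetra and +Tetra lists in opposite directions in Fed and in Fast. Without and with tetracycline the Fed lists had 2209 and 1922 bp against 0 and 1382 bp, and the Fast lists 2859 and 269 bp against 3229 and 4086 bp. Each +Tetra list thus lay under each -Tetra list in Fed and over each in Fast, and the tetracycline difference in Fast exceeded that in Fed by 3.47 kb. This direction rule is not itself a test. It was applied to every member in both marks, and the share of all genes that meet it was not counted. As an interaction in limma the difference was 3.69 ± 1.67 (SE) on the log2 scale with an adjusted p of 0.9999.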

How the results depend on the processing

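The H3K27ac count of 3 called members became 0 with the upper 0.5 of a list by score, equal numbers of top-scoring peaks, peaks of at least 500 bp or flanks of 10 kb, and 1 (Tnfrsf19) with no filter on low values; leaving out 1 list gave 0 to 5, with 0 without Fast -Tetra list 2 or Fed +Tetra list 1, 1 without Fast -Tetra list 1 and 5 without Fed -Tetra list 2. Over all genes, 23 higher calls became 0, 2 (with 1 lower), 0 and 0 in the first 4 settings, 65 with no filter, 145 with a pseudocount of 1000 bp and 39 (with 11 lower) after scaling. The gain of 3.75 members marked at a gene end became 1.0 with the upper 0.5, 1.5 with equal numbers and 3.0 with an overlap of 0.5 of the peak, and was 3.0 to 4.5 over lists of 1 number. The tetracycline difference of -0.75 became -1.5 with the upper 0.5 and -1.0 to -0.5 without a list. The 5 members without overlap became 1 with the upper 0.5 and 1 with equal numbers, and 5 to 9 without lists (8 without Fast +Tetra list 2). The 5 Fast-only regions became 3 with flanks of 10 kb, 2 with the upper 0.5, 0 with equal numbers and 5 to 26 without lists (11 without Fed -Tetra list 2, 10 without Fast +Tetra list 2), and the reverse count of 0 became 0 to 2. In either mark, leaving out lists only loosens the rules for members without overlap and for Fast-only or Fed-only regions. Those counts could therefore not fall below their main values when lists were left out.

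For H3K9ac the gene-end difference of 0.75 became -0.5 with equal numbers and -1.5 to 3.0 without lists; the tetracycline difference of -0.25 became 0.75 with the 2.5 kb window and -1.0 to 0.5 without lists (0.25 without Fed -Tetra list 2, Fast -Tetra list 1 or Fed +Tetra list 1). The 2 members without overlap became 1 with the upper 0.5, 0 with equal numbers, 0 with peaks of at least 500 bp, 1 after scaling and 2 to 10 without lists, and the reverse 0 to 1; the 1 region became 0 with the upper 0.5, 0 with equal numbers and 1 to 9 without lists (2 without Fed -Tetra list 2 or Fast +Tetra list 1), and the reverse 0 to 2. Of the members' log2 ratios, Msi1 H3K27ac was -0.04 with equal numbers. For H3K9ac, equal numbers gave -0.62 at Rnf43, -0.03 at Axin2, -0.4 at Sox9 and -0.4 at Msi1, scaling gave -0.12 at Rnf43 and -0.09 at Msi1, and leaving out lists gave -0.37 to 2.22 at Ascl2, -0.91 to 5.67 at Smoc2, -0.04 to 0.68 at Rnf43, -0.09 to 1.06 at Znrf3 and -0.09 to 0.81 at Msi1. With equal numbers the H3K9ac median over all genes was -0.65. The causes were not tested. For H3K27ac 69 of 70 values under the other alternatives and 80 of 80 without lists kept their direction, and for H3K9ac 71 of 77 and 93 of 98. The other alternatives counted here include the list-number block, no filter and the exact permutation test. These 3 leave a gene's ratio unchanged, so their values kept their direction by construction.

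Deviations of same-numbered lists correlated weakly between groups, at 0.025 to 0.256 for H3K27ac. For H3K9ac they correlated at 0.169 between the Fed groups, at 0.293 between the Fast groups and at -0.166 to -0.126 between Fed and Fast groups. Whether the list number pairs the groups was not tested. With the list number as a replicate block, 4 members (adding Axin2, adjusted p = 0.043) and 180 genes were called for H3K27ac. Without all lists of 1 number limma could not be fitted, so only values are given. Unknown depth, 2 lists a group and lists of unequal length limit every comparison.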
